A study of Homo sapiens with 45 samples.

Results

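The synaptic genes examined here are 53 genes that code for proteins of the synaptic vesicle, the SNARE fusion machinery, the presynaptic active zone, the endocytic recycling of vesicle membrane, the adhesion across the synaptic cleft and the postsynaptic density. They were chosen by gene symbol, and all 53 were found among the 29159 genes of the count tables. They comprised 13 vesicle, 7 SNARE, 16 active zone, 4 endocytic, 5 adhesion and 8 postsynaptic genes; the synaptotagmins, the calcium sensors of the vesicle, were left out. RNA-seq was available for 3 lines grown from human neuroblastoma, namely IMR-32, SH-SY5Y and SK-N-BE(2)C, each as control cells, after 24 h in palbociclib (PB) and after longer PB, which lasted 7 days for SK-N-BE(2)C and 5 days for the others. Whether the control cells received the solvent of the drug is not stated for these samples. PB inhibits CDK4 and CDK6, the kinases that release cells from G1, and was used at 1 μM in medium with serum. Each of the 9 groups held 5 replicates, grown from different passages in separate experiments, giving 45 libraries. SK-N-BE(2)C and IMR-32 carry MYCN amplification and SH-SY5Y does not; each line is a single tumour-derived culture, so what is said of a line is not a statement about a tumour class. Control cells were harvested alongside those treated for 24 h, so the effect of longer PB and the effect of more days in culture cannot be told apart, and in comparisons with SK-N-BE(2)C neither can the line and the length of the longer treatment.

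At a chemical synapse, neurotransmitter is stored in vesicles coated with proteins such as synaptophysin and the synapsins. Active zone scaffolds of the RIM, Munc13, Bassoon and liprin families hold and prime the vesicles at the membrane, the SNARE proteins syntaxin, SNAP25 and VAMP drive fusion, and dynamin, amphiphysin and synaptojanin retrieve the membrane. Neurexins on the presynaptic side bind neuroligins on the other, where SHANK, PSD-95 and HOMER proteins anchor receptors and CaMKII. Neuroblastoma arises from the sympathoadrenal lineage, whose cells also secrete from dense-core granules, so many of these genes are also used in regulated secretion outside synapses.

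Libraries held 13459219 to 25441812 counts (median 18494528), so that 13.5 to 25.4 reads made up 1 CPM (1 count per 1000000 counts of a library). The cells carried the markers of adrenergic neuroblastoma: the 11 adrenergic transcription factor and enzyme genes summed to 2052 CPM or more in each library, and all but TFAP2B in IMR-32 averaged at least 0.1 CPM in every group. The 6 Schwann cell and glial markers found in the tables summed to at most 27.9 CPM, with CDH19 under 0.1 CPM on average in all groups, and the 10 mesenchymal markers summed to 323 to 2731 CPM, 5 of them falling after longer PB in each line and 2 of them, FN1 and COL3A1, rising in SK-N-BE(2)C. The 6 proliferation markers all fell in each line at both times, and their summed median went from 1942 to 177 and 311 CPM in SK-N-BE(2)C, from 1759 to 232 and 620 CPM in IMR-32 and from 1905 to 105 and 342 CPM in SH-SY5Y. The part of these marker changes in the results below was not tested, and in such bulk samples fewer cells of a kind and less RNA per cell cannot be told apart.

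Replicate 5 of IMR-32 stood apart in all 3 of its groups. In the control group it was the lowest of the 5 libraries for 36 of the 49 synaptic genes tested in that line, with a summed level of the 53 genes of 3032 CPM against 3752 to 4107 CPM in the other controls. At 24 h it was the lowest for 26 of 49 and after 5 days for 20 of 49, but at 5 days its summed level, 5545 CPM, was the highest. Replicate 2 also stood apart at 24 h. It was the lowest for 21 of 49, and its summed level of 3599 CPM was below that of replicate 5 (3878 CPM). Replicate 5 is kept below, and calls of IMR-32 that changed on replicates 1 to 4 alone are given beside the results they touch. Those refits still hold 24 h replicate 2.

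The promoters of 42 of the 53 genes were found among the RefSeq start sites (GRCh38.p14), with 71 windows of 250 bases upstream of a start. Those of 3 vesicle genes that were higher after longer PB in every line are printed because each has 1 start site in that table and they span the range of motif content, from a full cyclic AMP response element (CRE) in SYN1 to none of the motifs searched in SYP. All are shown 5′ to 3′ on the gene's own strand, and capitals mark TGACGTCA (the CRE) or its shorter core TGACG, on either strand, so that the core may appear as CGTCA. SYN1 lies at chrX:47619858-47620107 (minus strand), SYP at chrX:49200194-49200443 (minus strand) and RAB3A at chr19:18204043-18204292 (minus strand).
SYN1: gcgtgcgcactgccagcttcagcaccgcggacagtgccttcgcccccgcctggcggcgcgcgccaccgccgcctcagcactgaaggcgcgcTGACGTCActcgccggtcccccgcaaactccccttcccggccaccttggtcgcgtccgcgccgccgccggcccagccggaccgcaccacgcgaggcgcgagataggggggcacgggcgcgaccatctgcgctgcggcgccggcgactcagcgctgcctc
SYP: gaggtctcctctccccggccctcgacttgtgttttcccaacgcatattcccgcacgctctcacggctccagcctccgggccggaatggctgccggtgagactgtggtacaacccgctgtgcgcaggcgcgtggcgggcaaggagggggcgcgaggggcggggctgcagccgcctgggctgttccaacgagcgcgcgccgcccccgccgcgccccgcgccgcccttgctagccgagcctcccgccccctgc
RAB3A: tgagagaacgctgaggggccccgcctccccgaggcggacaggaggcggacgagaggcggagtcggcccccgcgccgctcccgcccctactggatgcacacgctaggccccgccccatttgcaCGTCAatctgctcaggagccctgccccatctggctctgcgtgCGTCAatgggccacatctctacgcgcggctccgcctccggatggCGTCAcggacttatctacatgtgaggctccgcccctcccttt

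RAB3A held the 5-base core 3 times and SYN1 held it on both strands of its CRE, whereas SYP held neither. Over all member windows the CRE was found in 2 of 71 (2.82%; SYN1 and 1 start of DLG4) against 1.65% of all 35116 windows of the same length, and the core TGACG, which overlaps the CRE, in 13 of 71 (18.3%) against 21.2%. The E-box CACGTG, the letters bound by MYC proteins, was found in 2 of 71 windows (2.82%; UNC13A and PPFIA4) against 6.34%, and TATAAA in 2 (2.82%) against 10.7%. The windows were richer in G and C than the average start site, with a median of 66.4% against 58% and 19 against 11 CG pairs. These are descriptions of letters, and some windows of the same gene overlap, so the windows are not independent.

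**Figure D1:**
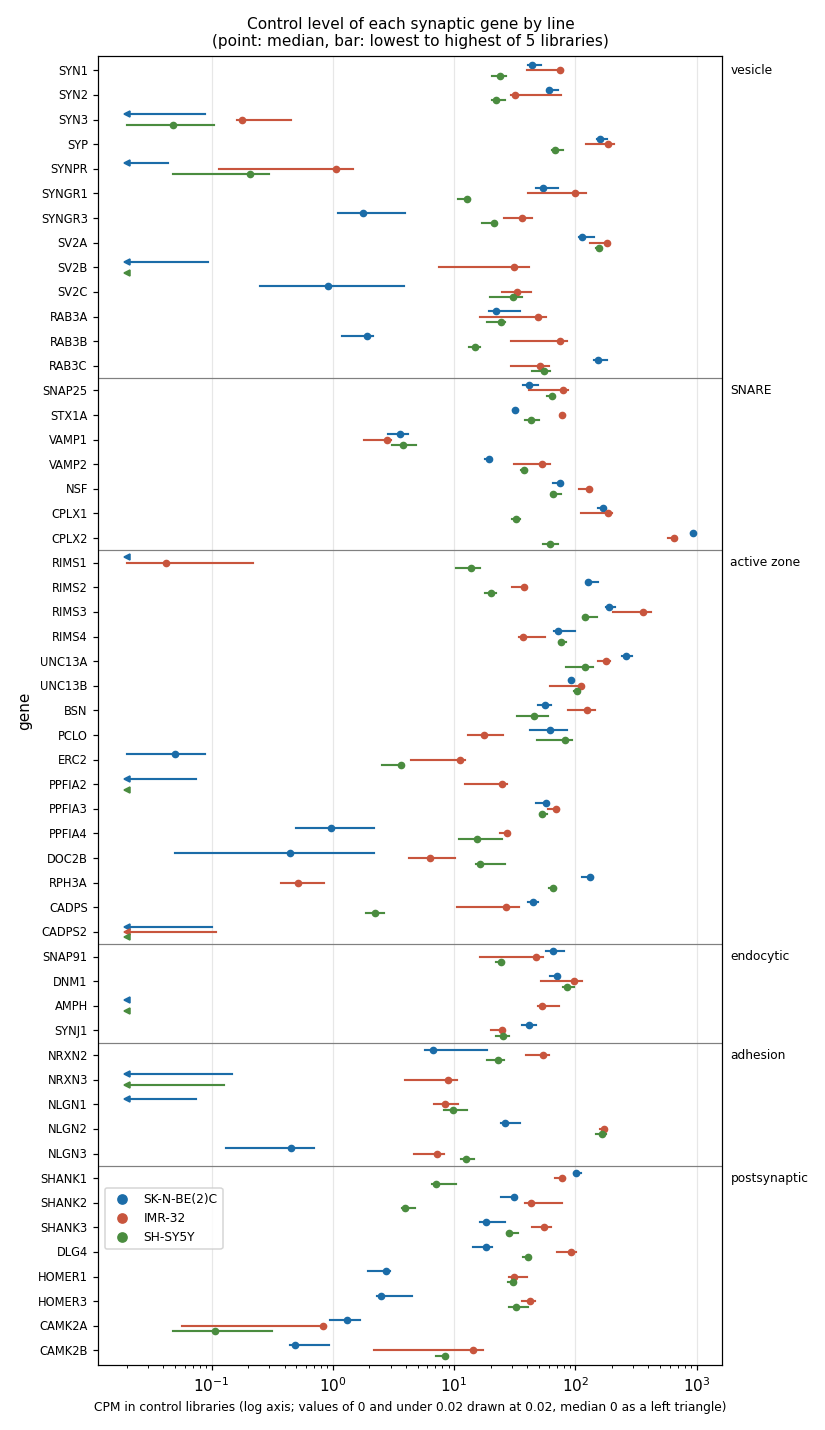
Level of the 53 synaptic genes in control cells, in CPM on a log axis, with the median (point) and the lowest to highest of 5 control libraries (bar) for each line. CPLX2 reached 903 to 952 CPM in SK-N-BE(2)C, while AMPH, SV2B and PPFIA2 lay near 0 outside IMR-32 and RIMS1 near 0 outside SH-SY5Y.

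Control cells of all 3 lines already expressed most of the synaptic set, with 45 to 52 of the 53 genes detected per control library, but each line had its own selection. Genes were counted as tested in a line when they passed edgeR's filter on low counts, which 43 of 53 did in SK-N-BE(2)C, 49 did in IMR-32 and 46 did in SH-SY5Y, with 41 passing in every line and 2, SYN3 and CADPS2, in none. The filter used treated libraries too. Of 5 controls, 0 reached its limit for SYNPR in SH-SY5Y. In SK-N-BE(2)C 1 did for CAMK2B and 2 did for DOC2B and for NLGN3. Per kilobase of exon, the most abundant member in control cells was CPLX2, a complexin that clamps and times SNARE fusion, in SK-N-BE(2)C (132 ± 3.12 CPM per kb, mean ± SD, n = 5) and in IMR-32 (90.7 ± 5.04). In SH-SY5Y it was SV2A, a transporter-like glycoprotein of the vesicle membrane (32.4 ± 1.15 CPM per kb), followed by NLGN2, the neuroligin of inhibitory synapses (28.7 ± 2.02). CPLX1 came next in SK-N-BE(2)C (70.2 ± 3.75) and also IMR-32 (72.1 ± 15.8), and then the active zone protein RIMS3 (26.4 ± 1.80 and 48.1 ± 11.6).

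Several genes were confined to 1 or 2 lines at this depth. AMPH, the endocytic adaptor amphiphysin, had 5826 counts over the 5 IMR-32 controls and 0 in the controls of both other lines. SV2B had 2916 counts in IMR-32 controls, 3 counts in those of SK-N-BE(2)C and 0 counts in SH-SY5Y, the liprin PPFIA2 had 2402, 1 and 0, and the neurexin NRXN3 had 848, 3 and 3. RIMS1 had 1403 counts in SH-SY5Y controls, 8 in IMR-32 and 0 in SK-N-BE(2)C. RPH3A, the Rab3 effector rabphilin, went the other way, with 56 counts in IMR-32 against 12079 for SK-N-BE(2)C and 6650 for SH-SY5Y, and NLGN1 had 1 count in SK-N-BE(2)C against 878 and 1011. All but AMPH were named after their values were seen. A count of 0 over 5 libraries covers counting error only and says that the gene was not detected at this depth. A test of the control level between lines passed an adjusted p of 0.05 for 49 of the 51 members tested (edgeR's quasi-likelihood F test over all 45 libraries), where 92.1% of all 16282 genes tested did, so a difference between lines in itself does not mark these genes; VAMP1 and UNC13B did not pass (adjusted p = 0.139 and 0.346).

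**Figure D2:**
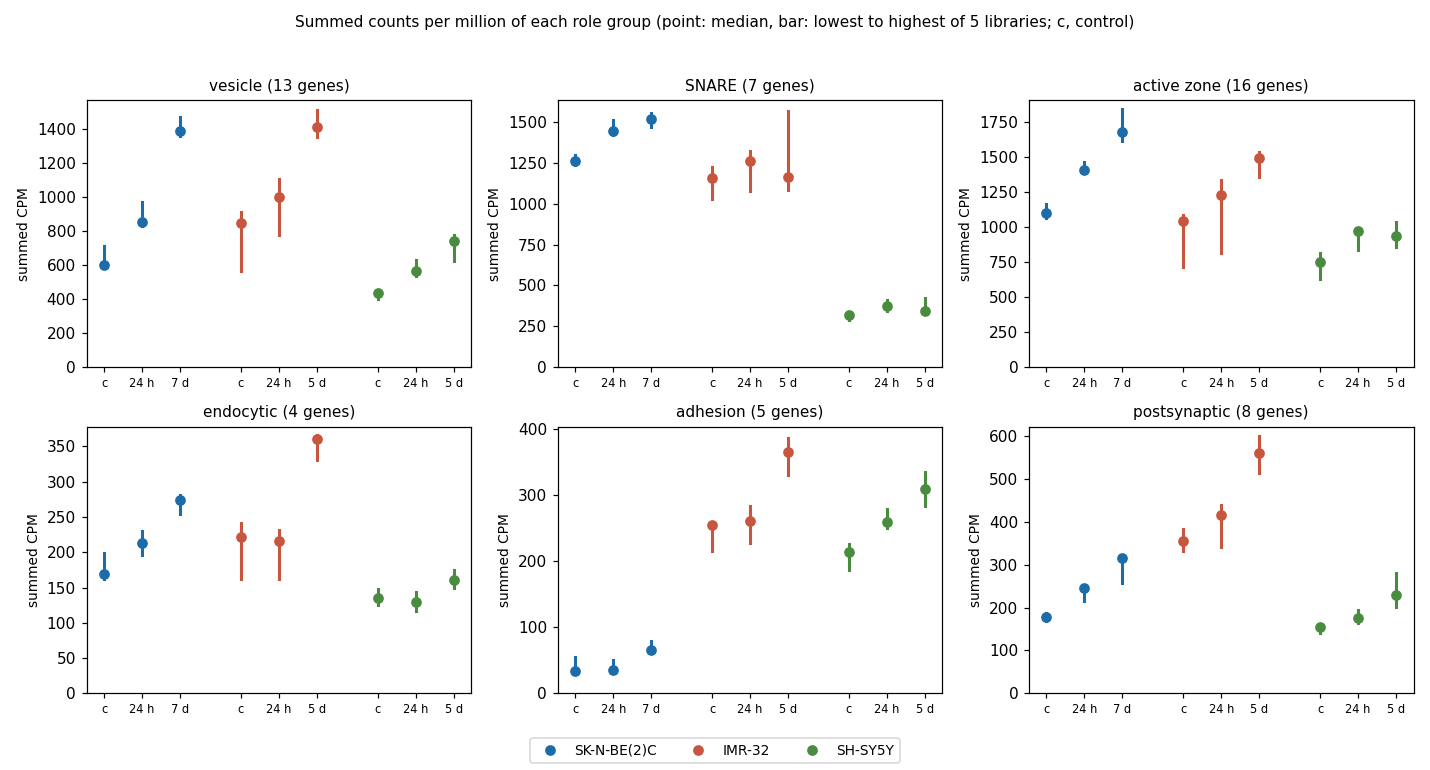
Summed CPM of the genes of each role group in each line and group, on axes that start at 0 (point, median; bar, lowest to highest of 5 libraries). The sums after longer PB lay above every control library of the same line for each role in each line, except for the SNARE sum of IMR-32, which overlapped its controls.

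After longer PB more of the synaptic genes rose than fell in each of the 3 lines. A gene was called when its adjusted p was under 0.05 and its log2 fold change over 0.5 in size (edgeR's quasi-likelihood F test within a line, Benjamini-Hochberg adjustment over all genes tested). After 7 days in SK-N-BE(2)C 25 of 43 tested members rose (58.1%) and 2 fell (4.65%), where 24.5% and 22.3% of all genes tested did. In IMR-32 29 of 49 rose (59.2%) and 5 fell (10.2%) after 5 days, against 16.6% and 15.5% of all genes. In SH-SY5Y 21 of 46 rose (45.7%) and 1 fell (2.17%), against 18.6% and 17.3% of all genes. The SH-SY5Y counts of higher genes at 24 h and at 5 days, over the whole set and over the vesicle group, include SYNPR, which entered the test there only through the treated groups and had to differ. The SK-N-BE(2)C counts at 7 days include CAMK2B and NLGN3, of whose 5 controls only 1 and 2 reached the filter's limit. The IMR-32 counts at 5 days include CAMK2A, with 3 of 5 controls over it. These genes also passed largely through treated libraries. The median log2 fold change of the tested members was 0.61, 0.61 and 0.47, beside 0.01, 0.00 and 0.01 over all genes. On replicates 1 to 4 of IMR-32, 27 rose and 7 fell (18.1% and 16.9% of all genes), with a median of 0.56. The count of members that rose or fell does not stand as independent support for the direction, since the members were chosen with earlier results of these data known.

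At 24 h the change was smaller. In SK-N-BE(2)C 10 of 43 members rose and 1, VAMP1, fell, where 10.9% and 10.6% of all genes did, and in SH-SY5Y 13 of 46 rose and 0 fell, where 10.5% and 11.0% did; beside this count of 0 by edgeR, 2 members were lower at an unadjusted p under 0.05 and DESeq2 also called 0. In IMR-32 4 of 49 rose and 4 fell, against 7.87% and 10.5% of all genes, shares near the background (8.16% each). The 4 that rose were SYP, RAB3A, STX1A and VAMP2, and the 4 that fell were SV2C, RIMS4, AMPH and NRXN3. With the replicate number as a block, which the samples of this line follow, 7 rose at 24 h (10.1% of all genes), SYNGR1, ERC2 and SNAP91 being added (0.60, 0.53 and 0.57 on the log2 scale, adjusted p = 0.000876, 0.0335 and 0.0136). On replicates 1 to 4 of IMR-32, 5 rose and 5 fell at 24 h, where 9.14% and 11.1% of all genes did: SYNGR1 and HOMER3 were added to the higher genes (0.55 and 0.54), STX1A was lost (0.48) and VAMP1 was added to the lower genes (-0.57). RAB3A and STX1A were the members that rose at 24 h in every line on all replicates. Over the tested members the median log2 fold change at 24 h was 0.19 in IMR-32, 0.37 in SH-SY5Y and 0.32 in SK-N-BE(2)C.

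Between 24 h and the longer time 16 members rose in SK-N-BE(2)C and 2 fell (17.5% and 14.4% of all genes), and 18 rose and 2 fell in IMR-32 (10.8% and 8.86%). In SH-SY5Y 9 rose and 4 fell (10.5% and 6.23%), with a median of 0.16 against 0.43 and 0.41 in the other lines. Those that fell were UNC13B and RPH3A in SK-N-BE(2)C, NLGN1 and HOMER3 in IMR-32, and NSF, CPLX2, UNC13B and RPH3A in SH-SY5Y. Over the same interval the 6 proliferation markers rose in IMR-32 and SH-SY5Y, and 1 of 6 did in SK-N-BE(2)C. With the replicate block 22 rose and 3 fell in IMR-32 over this interval (13.2% and 9.93% of all genes). On replicates 1 to 4 of that line, 20 rose and 4 fell (13.5% and 11.0%): SYN2, RAB3A, ERC2 and CAMK2B were added to the higher genes (0.59, 0.51, 0.52 and 0.83), SV2A and NRXN2 were lost (0.42 and 0.46), and SYNPR and CPLX2 were added to the lower genes (-1.66 and -0.58). NSF and UNC13B in SH-SY5Y stood at the fold limit and were not called with library sizes alone as the scaling (-0.46 and -0.44).

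The same counts were made over 103 other synaptic genes of the same 6 roles, 102 of them in the tables. After longer PB, 30 rose and 8 fell of 83 tested in SK-N-BE(2)C, 22 rose and 11 fell of 91 in IMR-32, and 25 rose and 7 fell of 83 in SH-SY5Y, with medians of 0.31, 0.19 and 0.20. Among them the postsynaptic genes rose in 9 of 14, 3 of 16 and 3 of 14 and fell in 0, 2 and 0, the endocytic genes rose in 2 of 19, 4 of 21 and 1 of 19, and the adhesion genes rose in 7 of 13, 6 of 16 and 8 of 15 and fell in 2, 4 and 4. Beside these counts stand the shares of all genes given above, 24.5%, 16.6% and 18.6% higher and 22.3%, 15.5% and 17.3% lower; the endocytic shares that rose lay near or below them. Both lists were made with earlier results of these data known, and no test compares them.

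**Figure D3:**
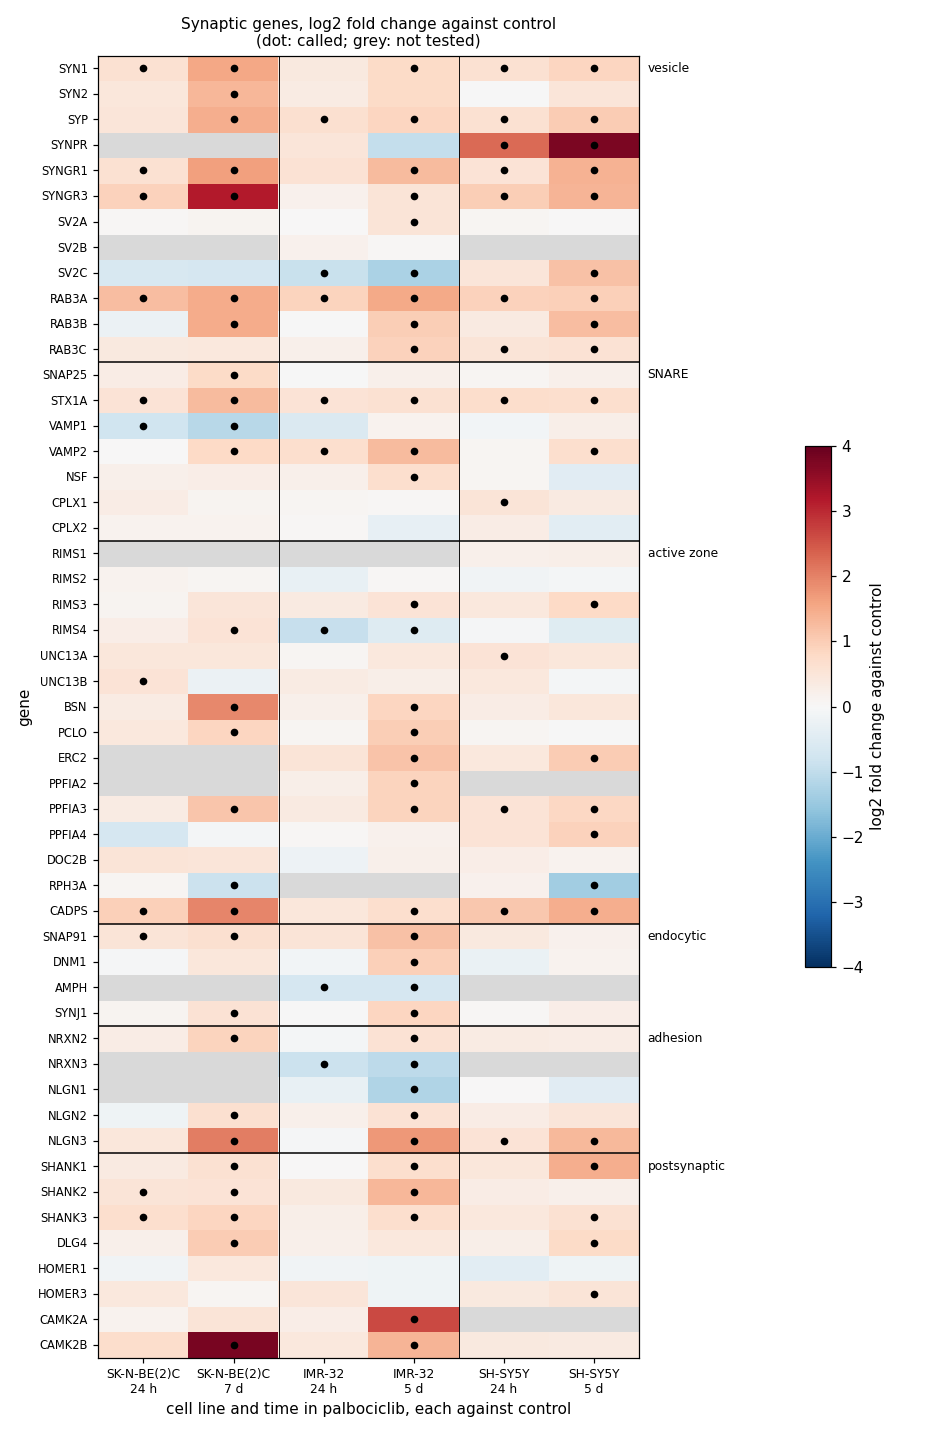
Log2 fold change of the 51 tested synaptic genes against control after 24 h and longer PB in each line, ordered by role; red is higher, blue lower, grey not tested in that line, and a dot marks a call. The longer columns hold 25, 29 and 21 calls up and 2, 5 and 1 calls down; all columns of a line share its 5 control libraries.

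Of the 41 genes tested in all 3 lines, 13 rose after longer PB in all of them (31.7%) and 0 fell in all, where 6.91% and 6.50% of all genes tested in 3 lines did. Of the 51 tested in any line, 37 rose in at least 1 line (72.5%) and 7 fell in at least 1 (13.7%), where 32.9% and 30.2% of all genes did. Of the 46 tested in more than 1 line, 2 went in opposite directions (4.35%), where 2.83% of all genes did. The 13 were SYN1, SYP, SYNGR1, SYNGR3, RAB3A and RAB3B of the vesicle, STX1A and VAMP2 of the SNARE group, PPFIA3 and CADPS of the active zone, NLGN3 of the adhesion group (with 2 of 5 SK-N-BE(2)C controls over the filter's limit) and SHANK1 and SHANK3 of the postsynaptic group. None of the 4 endocytic genes was among them; in SH-SY5Y 0 endocytic genes were called by edgeR and by DESeq2, although 3 had an unadjusted p under 0.05. For the genes below, CPM is the count over the library total, values are the mean ± SD of 5 libraries, and log2 fold changes are given with their standard error from the edgeR fit.

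Vesicle genes rose in 7 of 10 (SK-N-BE(2)C), 8 of 12 (IMR-32) and 9 of 11 (SH-SY5Y, SYNPR included) tested after longer PB, beside 24.5%, 16.6% and 18.6% of all genes, with median log2 fold changes of 1.47, 0.77 and 1.02. SYP (chrX:49044268-49056677, minus strand, GRCh37) codes for synaptophysin, the abundant membrane protein of small synaptic vesicles. In SK-N-BE(2)C its 5 controls read 181, 160, 151, 158 and 160 CPM, the 24 h libraries 242, 233, 226, 230 and 239 CPM and the 7 day libraries 485, 488, 438, 436 and 462 CPM. The 3 groups did not overlap. The 24 h difference, 0.50 ± 0.06, stood at the fold limit and was not called. The log2 fold change at 7 days was 1.47 ± 0.06 (adjusted p = 1.02e-11). In IMR-32 SYP went from 177 ± 35.0 to 327 ± 9.98 CPM (log2 fold change 0.87 ± 0.12, adjusted p = 4.09e-05) and in SH-SY5Y from 69.2 ± 5.73 to 148 ± 5.98 CPM (1.02 ± 0.07, 9.46e-10), again without overlap. The rise was larger in SK-N-BE(2)C than in IMR-32 by 0.62 ± 0.13 and than in SH-SY5Y by 0.42 ± 0.13 on the log2 scale (adjusted p = 0.000164 and 0.0105, edgeR over 45 libraries).

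SYN1 (chrX:47431300-47479256, minus strand, GRCh37) codes for the synapsin that tethers vesicles in the reserve pool. It shares 928 of its 3733 exon bases with another annotated gene on its strand, so reads there could be counted for either or neither. Its CPM in SK-N-BE(2)C was 45 ± 4.35, 70.3 ± 4.01 and 136 ± 7.71 in control, 24 h and 7 day cells, a log2 fold change of 1.55 ± 0.07 at 7 days (adjusted p = 3.56e-11). In SH-SY5Y it was 24.0 ± 2.58, 37 ± 4.58 and 45.5 ± 5.51, with 0.85 ± 0.10 at 5 days (6.46e-07). In IMR-32 the controls read 75.8, 73.4, 79.1, 74.8 and 40.1 CPM and the 5 day libraries 123, 117, 119, 113 and 118 CPM. Replicate 5 was thus the low control, and the log2 fold change of 0.77 ± 0.15 became 0.63 ± 0.07 on replicates 1 to 4; the gene was called either way. SYN2, another synapsin, rose in SK-N-BE(2)C (1.33 ± 0.12), was not called in SH-SY5Y (0.48 ± 0.10) and in IMR-32 passed on replicates 1 to 4 (0.75 ± 0.10, adjusted p = 1e-05) and with the replicate block (0.75, 3.11e-06) but not on all 5 replicates without it (0.77 ± 0.42), where replicate 5 read 75.8, 111 and 133 CPM against at most 33.8, 37.9 and 64.1 CPM in the others.

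The synaptogyrins, tetraspan relatives of synaptophysin, rose in all 3 lines. SYNGR1 in SK-N-BE(2)C went from 58.1 ± 10.2 to 188 ± 9.62 CPM (1.65 ± 0.11). In IMR-32 it went from 92.7 ± 30.5 to 225 ± 35.1 CPM (1.27 ± 0.25) and in SH-SY5Y from 12.5 ± 1.07 to 34.4 ± 4.93 CPM (1.39 ± 0.09), with no overlap between control and longer groups. SYNGR3 had the largest rise among the vesicle genes that passed the filter in SK-N-BE(2)C. Its controls read 3.93, 2.24, 1.10, 1.78 and 1.19 CPM and its 7 day libraries 25.1, 24.0, 13.4, 17.0 and 16.5 CPM, a log2 fold change of 3.16 ± 0.33 (adjusted p = 3.68e-07). In IMR-32, where the control level was already 36.5 ± 6.84 CPM, it read 52.5 ± 10.8 CPM after 5 days, the groups overlapped, and the log2 fold change of 0.52 ± 0.16 (adjusted p = 0.0127) stood at the fold limit. Without control replicate 5, 5 day replicate 1 or 5 day replicate 2 it fell to 0.42, 0.43 and 0.46 and was no longer called, nor was it with RLE size factors, with DESeq2 or with no filter (0.50, 0.50 and 0.49). The difference between SK-N-BE(2)C and IMR-32 in this response was 2.67 ± 0.31 (adjusted p = 1.23e-08).

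RAB3A and RAB3B are small GTPases that dock vesicles at the active zone. They were first called at different times, though no test compared their courses. RAB3A rose at 24 h in each line, by 1.23 ± 0.16, 0.89 ± 0.24 and 0.93 ± 0.12 on the log2 scale, and was at 1.47 ± 0.16, 1.52 ± 0.25 and 0.96 ± 0.12 after longer PB. Between 24 h and the longer time its move of 0.24 ± 0.16 in SK-N-BE(2)C and of 0.04 ± 0.11 in SH-SY5Y was not past the limits, and by 0.64 ± 0.24 in IMR-32 (adjusted p = 0.0545; 0.0129 with the replicate block, and 0.000599 at a change of 0.51 on replicates 1 to 4). In IMR-32 its controls read 49.2, 51.7, 42.0, 57.8 and 16.3 CPM and the 5 day libraries 126, 142, 107, 123 and 129 CPM. On replicates 1 to 4 its rise was 1.30 ± 0.10. RAB3B was not called at 24 h in any line and was called higher at the longer time, by 1.5 ± 0.26 in SK-N-BE(2)C, from 1.70 ± 0.41 to 4.92 ± 2.14 CPM, by 1.0 ± 0.30 in IMR-32, from 64.3 ± 23.7 to 129 ± 30.2 CPM, and by 1.22 ± 0.14 in SH-SY5Y, from 15.1 ± 1.26 to 37.1 ± 9.25 CPM. In SH-SY5Y its 24 h libraries, at 17.6 to 23.5 CPM, already lay above all controls, at 13.3 to 16.5 CPM. RAB3C rose in IMR-32 and SH-SY5Y (0.91 and 0.58), the latter at 0.50 and not called without 5 day replicate 4.

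SYNPR, synaptoporin, was at low levels throughout. In SH-SY5Y its controls read 0.30, 0.21, 0.21, 0.05 and 0.11 CPM and its 5 day libraries 2.07, 2.73, 3.23, 3.92 and 0.97 CPM, a log2 fold change of 3.76 ± 0.41 that rested on 18 and 239 counts. No control library there reached the filter's limit of 0.529 CPM, so the gene entered the test only through the treated groups in which it was high, and its call is no support for a difference. In IMR-32 it read 0.92 ± 0.52 in control and 0.48 ± 0.25 CPM after 5 days and was not called (-0.96 ± 0.58, adjusted p = 0.179), but fell on replicates 1 to 4 (-1.17 ± 0.35, adjusted p = 0.00952). The difference between these lines in the response, 4.79 ± 0.70, is given as a description for the same reason. It did not pass the filter in SK-N-BE(2)C, with 1 count over the 5 controls and 75 over the 7 day libraries.

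SV2C, 1 of the 3 SV2 glycoproteins, moved in opposite directions. In SH-SY5Y its controls read 36.0, 33.5, 30.6, 23.0 and 19.9 CPM and its 5 day libraries 72.6, 80.9, 65.5, 71.2 and 47.8 CPM, a rise of 1.17 ± 0.19 (adjusted p = 7.26e-05). In IMR-32 the controls read 28.3, 33.1, 40.4, 25.0 and 43.4 CPM and the 5 day libraries 10.6, 13.3, 17.4, 10.5 and 18.7 CPM, and it fell by 1.28 ± 0.22 (adjusted p = 0.000246). The groups did not overlap in either line, and the responses differed by 2.51 ± 0.45 (adjusted p = 4.19e-05). The SK-N-BE(2)C controls were at 1.63 ± 1.54 CPM and the fold change -0.68 ± 0.67 (adjusted p = 0.373). SV2A was not called in SK-N-BE(2)C (0.10 ± 0.14) nor in SH-SY5Y (0.01 ± 0.05), and in IMR-32 was called at the limit (0.51 ± 0.12; 0.45 and not called on replicates 1 to 4). SV2B, expressed in IMR-32, was at 0.03 ± 0.36 and not called, and SYN3 held at most 24 counts per group of 5 libraries.

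**Figure D4:**
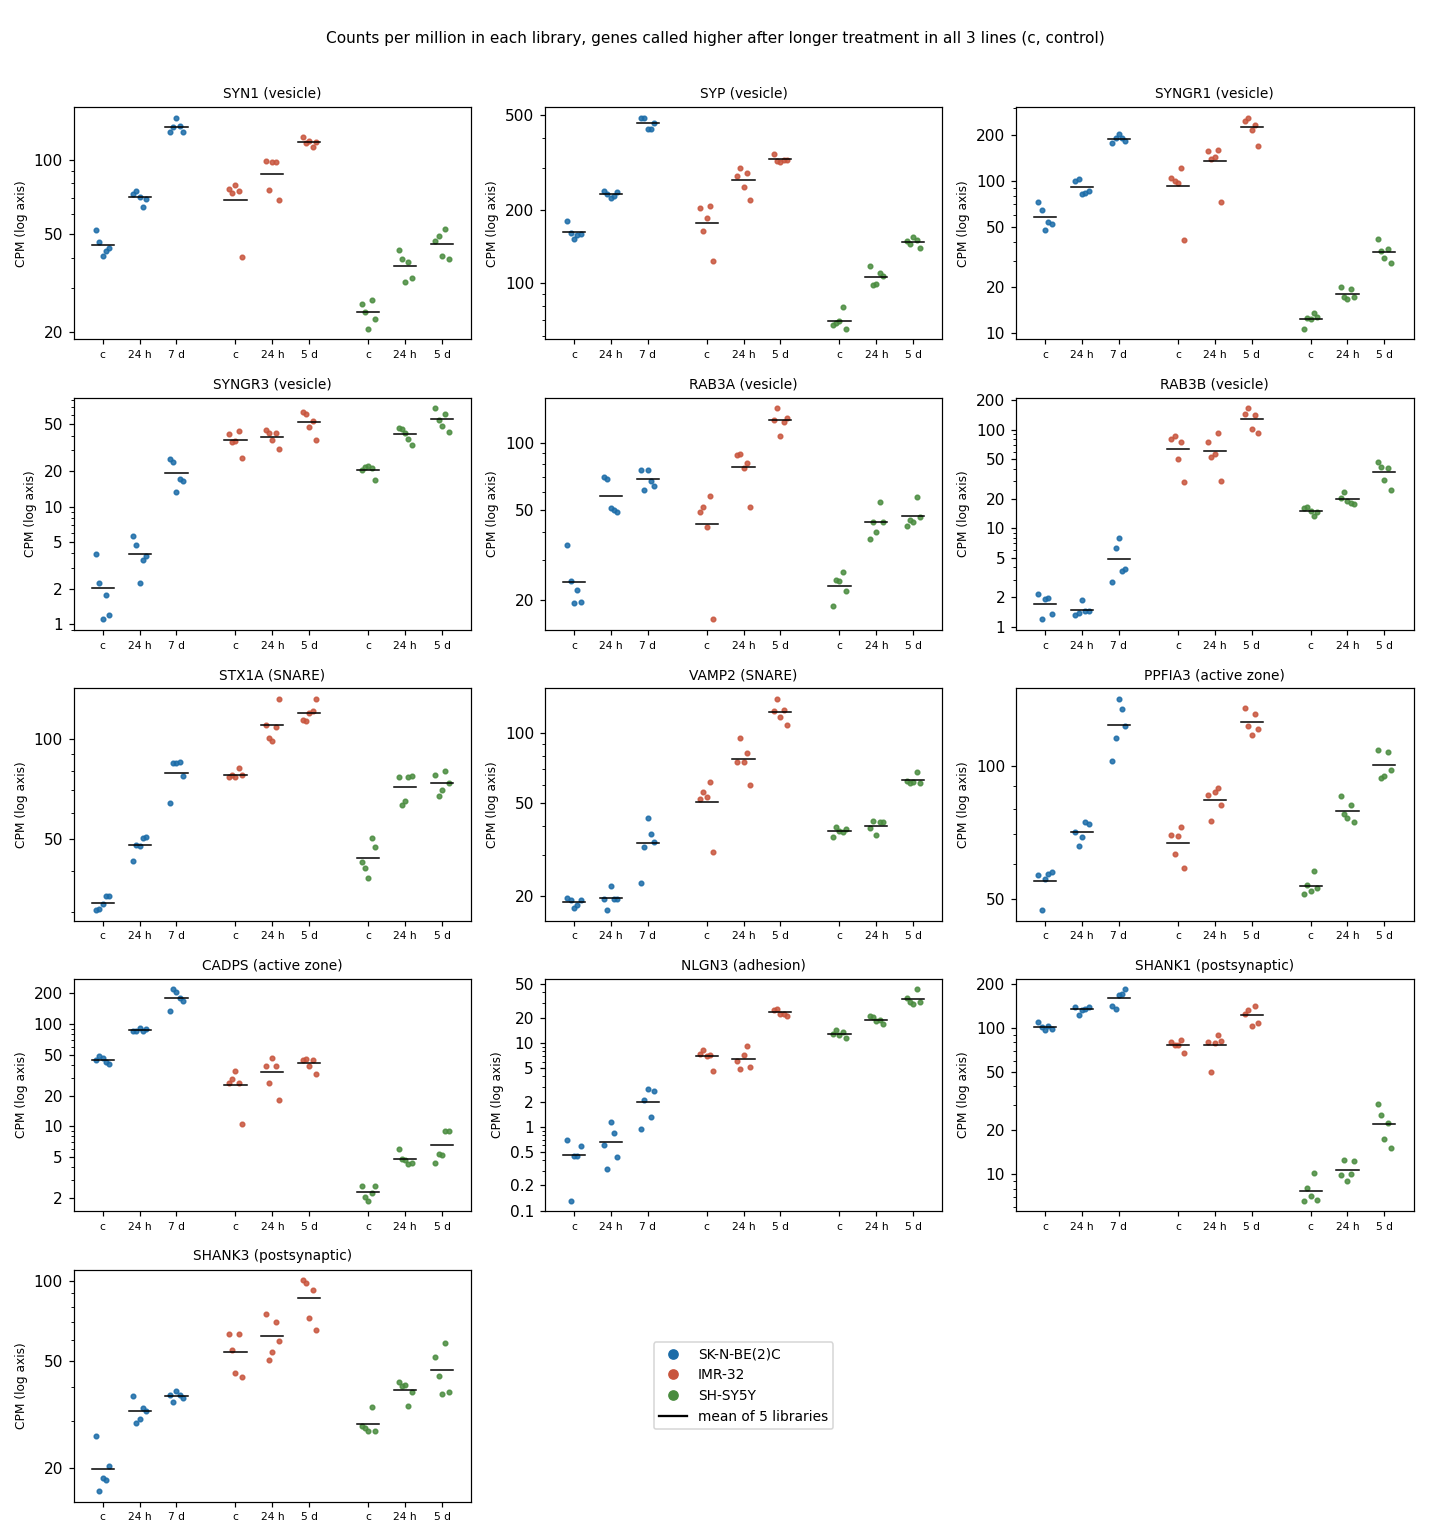
CPM in each library, on log axes, for the 13 genes that rose after longer PB in all 3 lines; c is control, the bar is the mean of 5 libraries. RAB3A and STX1A were already higher at 24 h in each line, whereas RAB3B and VAMP2 in SK-N-BE(2)C lay at the control level at 24 h (1.49 and 19.6 CPM) and above it at 7 days.

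SNARE genes rose in 3 of 7 tested in SK-N-BE(2)C, 3 of 7 in IMR-32 and 2 of 7 in SH-SY5Y at the longer time, beside 24.5%, 16.6% and 18.6% of all genes, and 1 of 7 fell, in SK-N-BE(2)C, where 22.3% of all genes did. STX1A, the plasma membrane syntaxin, rose at 24 h in all 3 lines (0.55 ± 0.07, 0.54 ± 0.07 and 0.70 ± 0.08). The 24 h call in IMR-32 was lost on replicates 1 to 4, at 0.48, and with library sizes alone as the scaling, at 0.49. After longer PB it stood at 1.26 ± 0.07 in SK-N-BE(2)C, from 32.0 ± 1.51 to 79.1 ± 8.96 CPM, at 0.61 ± 0.07 in IMR-32, from 78.2 ± 2.03 to 120 ± 7.72 CPM, and at 0.68 ± 0.08 in SH-SY5Y, from 43.7 ± 4.87 to 73.8 ± 5.24 CPM. A further rise after 24 h was called in SK-N-BE(2)C (0.72 ± 0.07), and the responses of that line and the others differed by 0.68 ± 0.11 and 0.55 ± 0.11 (adjusted p = 3.99e-06 and 0.000131).

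VAMP2, the vesicle SNARE synaptobrevin, had another course. It read 18.9 ± 0.75 CPM in SK-N-BE(2)C controls, 19.6 ± 1.68 at 24 h and 33.9 ± 7.49 at 7 days, and in SH-SY5Y 38.0 ± 1.47, 40.2 ± 2.36 and 62.9 ± 3.13. In IMR-32 the controls read 52.2, 55.9, 53.2, 61.7 and 30.9 CPM, the 24 h libraries 75.4, 95.3, 75.3, 82.4 and 59.9 CPM and the 5 day libraries 124, 140, 117, 126 and 109 CPM. It rose at 24 h in IMR-32 (0.66 ± 0.15) and was not called at 24 h in the others (0.02 ± 0.12 and 0.07 ± 0.06), and the 24 h response of IMR-32 was larger than that of SK-N-BE(2)C by 0.64 ± 0.17 and than that of SH-SY5Y by 0.56 ± 0.17 (adjusted p = 0.0172 and 0.0495). At the longer time it rose in all, by 0.80 ± 0.12, 1.27 ± 0.16 and 0.66 ± 0.06. VAMP2 shares 403 exon bases with another annotated gene on its strand, so reads there could be counted for either or neither.

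The third SNARE partner, SNAP25, rose in SK-N-BE(2)C (0.77 ± 0.10, from 42.0 ± 4.50 to 73.8 ± 5.71 CPM) and was not called in IMR-32 (0.19 ± 0.20) or SH-SY5Y (0.21 ± 0.11). VAMP1 fell in SK-N-BE(2)C (-1.12 ± 0.28), from 3.59 ± 0.52 to 1.66 ± 0.95 CPM at 7 days. Its 24 h change was -0.80 ± 0.27 (adjusted p = 0.0241), and that call was lost without control replicate 4 or 5 or 24 h replicate 2 or 3 (-0.74 to -0.76). NSF, the ATPase that takes spent SNARE complexes apart, rose in IMR-32 (0.68 ± 0.07, 125 ± 12 to 202 ± 4.15 CPM), and in SH-SY5Y went from 68.3 ± 4.87 to 52.2 ± 5.12 CPM (-0.46 ± 0.07), under the fold limit against control but called lower against 24 h (-0.52 ± 0.07). The difference in this response between SH-SY5Y and IMR-32 was -1.08 ± 0.09 (adjusted p = 1.42e-11). NSF has a pseudogene copy of part of its sequence, so its counts may be split. The complexins CPLX1 and CPLX2 were not called at the longer time in any line; in IMR-32 CPLX2 fell on replicates 1 to 4 (-0.64 ± 0.11); replicate 5 read 894 CPM after 5 days against 349 to 470 in the others. CPLX2 also fell between 24 h and 5 days in SH-SY5Y (-0.71 ± 0.10). These 5 genes were named after their values were seen.

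Active zone genes rose in 5 of 12, 7 of 13 and 5 of 14 tested at the longer time, and 1 fell in each line. Of all genes 24.5%, 16.6% and 18.6% rose and 22.3%, 15.5% and 17.3% fell. CADPS (chr3:62384021-62861091, minus strand, GRCh37), which codes for CAPS1, a priming factor for dense-core granules and vesicles, had the largest mean change of the group. Its SK-N-BE(2)C controls read 44.6, 49.1, 46.1, 42.5 and 40.9 CPM, the 24 h libraries 86.2, 86.3, 91.6, 85 and 89.5 CPM and the 7 day libraries 133, 218, 205, 179 and 166 CPM. The log2 fold change was 0.94 ± 0.10 at 24 h and 1.97 ± 0.10 at 7 days (adjusted p = 1.01e-10). In SH-SY5Y, where the control level was 2.28 ± 0.33 CPM, it rose by 1.06 ± 0.21 at 24 h and by 1.46 ± 0.20 at 5 days. In IMR-32 the rise was smaller (0.68 ± 0.27, adjusted p = 0.0444), the groups overlapped, and the call was lost in 10 of the 15 fits that left out 1 library; on replicates 1 to 4 it was 0.56 ± 0.13 (adjusted p = 0.00131). The response in SK-N-BE(2)C was larger than in IMR-32 by 1.32 ± 0.28 (adjusted p = 0.00029).

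PPFIA3, a liprin-alpha scaffold, rose with little spread between replicates, in SK-N-BE(2)C from 54.9 ± 4.30 to 123 ± 15.4 CPM (1.12 ± 0.08), in IMR-32 from 66.8 ± 5.59 to 125 ± 7.40 CPM (0.90 ± 0.07) and in SH-SY5Y from 53.7 ± 2.60 to 100.3 ± 6.96 CPM (0.83 ± 0.06). Bassoon (BSN), the large scaffold, rose by 1.92 ± 0.18 in SK-N-BE(2)C, by 0.84 ± 0.20 in IMR-32 and was not called in SH-SY5Y (0.45 ± 0.14). Piccolo (PCLO), its relative, rose in the same lines (0.87 and 0.99) and was not called in SH-SY5Y (adjusted p = 0.998). ERC2 rose in IMR-32 and SH-SY5Y (1.15 and 1.01), PPFIA2 in IMR-32 (0.90), PPFIA4 in SH-SY5Y (0.92), and RIMS3 in SH-SY5Y (0.80) and IMR-32 (0.55; 0.44 and not called on replicates 1 to 4). The Munc13 priming factors UNC13A and UNC13B, RIMS1, RIMS2 and DOC2B were not called against control at the longer time in any line in which they were tested. UNC13A still lay higher in all longer libraries than in all controls of the same line. Its lowest longer and highest control values were 316 against 292 CPM (SK-N-BE(2)C), 198 against 194 CPM (IMR-32) and 159 against 141 CPM (SH-SY5Y). Its log2 fold change in IMR-32 was 0.43, under the fold limit. UNC13B went the other way in SK-N-BE(2)C, its highest 7 day value (84.7 CPM) lying under its lowest control (87.8 CPM). UNC13B rose at 24 h in SK-N-BE(2)C (0.55 ± 0.05) and fell again by 7 days (-0.80 ± 0.05 against 24 h). In SH-SY5Y it read 98.2 to 106 CPM in controls, 131 to 155 CPM at 24 h and 97.0 to 115 CPM at 5 days. Its 24 h libraries there lay above all controls, but the rise was not called. PPFIA2 has 1758 exon bases under genes on the other strand, and it is unknown here which strand was counted.

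RIMS4 and RPH3A were the active zone genes that fell. RIMS4, a short RIM protein, went in opposite directions in 2 lines. The SK-N-BE(2)C controls read 99.4, 88.4, 67.2, 71.3 and 67.3 CPM and the 7 day libraries 183, 103, 75.9, 115 and 112 CPM, with overlap and a log2 fold change of 0.54 ± 0.22 (adjusted p = 0.0399). In IMR-32 the controls read 35.4, 34.5, 56.1, 40.4 and 36.7 CPM, the 24 h libraries 18.5, 17.6, 28.4, 21.9 and 17.2 CPM and the 5 day libraries 23.7, 23.7, 30.3, 20.3 and 44.8 CPM. It fell at 24 h by 0.93 ± 0.21 (adjusted p = 0.00334), without overlap, and at 5 days by 0.52 ± 0.21 (adjusted p = 0.0495), with the 5 day replicate 5 above 4 of the 5 controls; on replicates 1 to 4 the 5 day change was -0.77 ± 0.17 (adjusted p = 0.00149). Both longer calls were close to the limits and were lost in 6 of 15 (SK-N-BE(2)C) and 10 of 15 (IMR-32) fits that left out 1 library, and with no filter on low counts. Without 7 day replicate 1 the value in SK-N-BE(2)C was 0.30, and without control replicate 3 the value in IMR-32 was -0.38. The responses of IMR-32 and SK-N-BE(2)C differed by -1.20 ± 0.28 at 24 h and -1.08 ± 0.28 at the longer time (adjusted p = 0.00566 and 0.00249). In SH-SY5Y it went from 76.9 ± 3.84 to 57.9 ± 11.4 CPM (-0.48 ± 0.11), under the fold limit on all libraries and called lower without 5 day replicate 4 or 5 (-0.52 and -0.57). RIMS4 has 506 exon bases under KCNK15 on the other strand.

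RPH3A, named after its values were seen, fell at the longer time in the 2 lines in which it was tested. In SH-SY5Y the controls read 69.0, 62.2, 61.1, 65.6 and 68.0 CPM, the 24 h libraries 82.2, 64.3, 65.6, 70.1 and 85.5 CPM and the 5 day libraries 12.6, 15.5, 19.1, 50.2 and 33.9 CPM. The 5 day libraries lay below all controls, with replicates 4 and 5 nearest to them, and the log2 fold change was -1.38 ± 0.29 (adjusted p = 0.000911). The level in SK-N-BE(2)C went from 127 ± 11.6 to 72.5 ± 27.5 CPM (-0.85 ± 0.20, adjusted p = 0.0014).

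Endocytic genes rose in 2 of 3 tested in SK-N-BE(2)C, 3 of 4 in IMR-32 and 0 of 3 in SH-SY5Y, where 24.5%, 16.6% and 18.6% of all genes did; with so few genes nothing is read from these counts. In IMR-32 SNAP91, the clathrin assembly protein AP180, rose by 1.17 ± 0.24, DNM1, the neuronal dynamin, by 0.94 ± 0.20 and SYNJ1, a lipid phosphatase of uncoating vesicles, by 0.85 ± 0.12. SNAP91 and SYNJ1 in SK-N-BE(2)C rose by 0.65 ± 0.09 and 0.58 ± 0.09, and DNM1 was at 0.45 ± 0.07, under the fold limit. The 3 values in SH-SY5Y were 0.17, 0.15 and 0.26, none called; the test of a difference between lines passed for all 3 genes (adjusted p = 0.00341, 0.00438 and 0.01). AMPH, present in IMR-32, went the other way. Its controls read 52.0, 52.8, 62.7, 49.1 and 72.8 CPM, its 24 h libraries 28.2, 25.8, 39.3, 31.8 and 52.1 CPM and its 5 day libraries 35.0, 29.5, 36.9, 33.2 and 47.7 CPM. The 5 day libraries lay below all controls, and the log2 fold change was -0.67 ± 0.18 at 24 h and -0.68 ± 0.18 at 5 days (adjusted p = 0.00998 and 0.0057).

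Adhesion genes rose in 3 of 3 tested in SK-N-BE(2)C, rose in 3 of 5 and fell in 2 of 5 in IMR-32 and rose in 1 of 4 in SH-SY5Y. Of all genes 24.5%, 16.6% and 18.6% rose, and 15.5% fell in IMR-32. NLGN3 (chrX:70364671-70395105, plus strand, GRCh37), a neuroligin, rose in all 3 lines with the largest mean change of the group. In IMR-32 its controls read 7.47, 8.27, 7.08, 7.27 and 4.65 CPM, its 24 h libraries 6.01, 4.91, 7.19, 9.17 and 5.14 CPM and its 5 day libraries 25.0, 25.2, 22.1, 21.9 and 21.2 CPM. Control and 24 h groups overlapped, and all 5 day libraries were above both, a log2 fold change of 1.72 ± 0.17 (adjusted p = 1.66e-06). In SH-SY5Y it was already called at 24 h (0.55 ± 0.11) and rose by 1.31 ± 0.10 at 5 days, from 12.9 ± 1.14 to 33.7 ± 5.74 CPM. The rise in SK-N-BE(2)C was 2.05 ± 0.41 from a low level, 0.46 ± 0.21 to 1.97 ± 0.83 CPM, or 44 to 193 counts; 2 of the 5 controls there reached the filter's limit of 0.54 CPM.

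NLGN2 rose by 0.64 ± 0.11 in SK-N-BE(2)C, by 0.57 ± 0.06 in IMR-32, and stood at 0.47 ± 0.06 in SH-SY5Y, under the fold limit. Its 24 h response was the third that differed between lines (adjusted p = 0.00398), with -0.18 in SK-N-BE(2)C against 0.19 and 0.31. NRXN2 rose by 0.90 ± 0.37 in SK-N-BE(2)C, where leaving out any of 7 of the 15 libraries ended the call (lowest value 0.74), and by 0.57 ± 0.15 in IMR-32 (0.39 and not called on replicates 1 to 4). In IMR-32 NLGN1 fell by 1.20 ± 0.17, from 8.55 ± 1.45 to 3.75 ± 0.62 CPM, and NRXN3 fell by 1.06 ± 0.27 (adjusted p = 4.89e-05 and 0.00425). Within this line neurexins and neuroligins thus moved both ways: NRXN2, NLGN2 and NLGN3 up, and NRXN3 and NLGN1 down. These 4 genes were named after their values were seen.

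Postsynaptic genes rose in 5 of 8, 5 of 8 and 4 of 7 tested, beside 24.5%, 16.6% and 18.6% of all genes. By edgeR or by DESeq2 0 fell, with 0, 0 and 1 lower at an unadjusted p under 0.05, beside 22.3%, 15.5% and 17.3% of all genes called lower. SHANK1, a scaffold of the postsynaptic density, rose in SK-N-BE(2)C from 102 ± 5.49 to 161 ± 21.1 CPM (0.61 ± 0.08), in IMR-32 from 76.9 ± 5.51 to 123 ± 16.3 CPM (0.66 ± 0.12) and in SH-SY5Y from 7.76 ± 1.53 to 22.2 ± 6.07 CPM (1.44 ± 0.17). The rise in SH-SY5Y, from a lower level, was larger than in SK-N-BE(2)C by 0.86 ± 0.19 and than in IMR-32 by 0.84 ± 0.19 (adjusted p = 0.000521 and 0.000732). SHANK3 rose by 0.85 ± 0.11, 0.66 ± 0.14 and 0.60 ± 0.11, and the last fell to 0.50 without 5 day replicate 4 and was then not called. SHANK2 rose in IMR-32 (1.34 ± 0.28) and in SK-N-BE(2)C (0.53 ± 0.14), where the call was lost without control replicate 1 (0.46) or without 7 day replicate 3, 4 or 5 (0.46 to 0.49). DLG4, which codes for PSD-95, rose in SK-N-BE(2)C (1.01 ± 0.14) and SH-SY5Y (0.77 ± 0.09), and HOMER3 in SH-SY5Y (0.52 ± 0.12), which was not called without control replicate 4 or 5 or 5 day replicate 1 (0.50, 0.46 and 0.40). HOMER3 in IMR-32 fell from its 24 h level (-0.66 ± 0.12). This gene shares 421 of its 3422 exon bases with another annotated gene on its strand. HOMER1 was not called against control in any line.

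**Figure D5:**
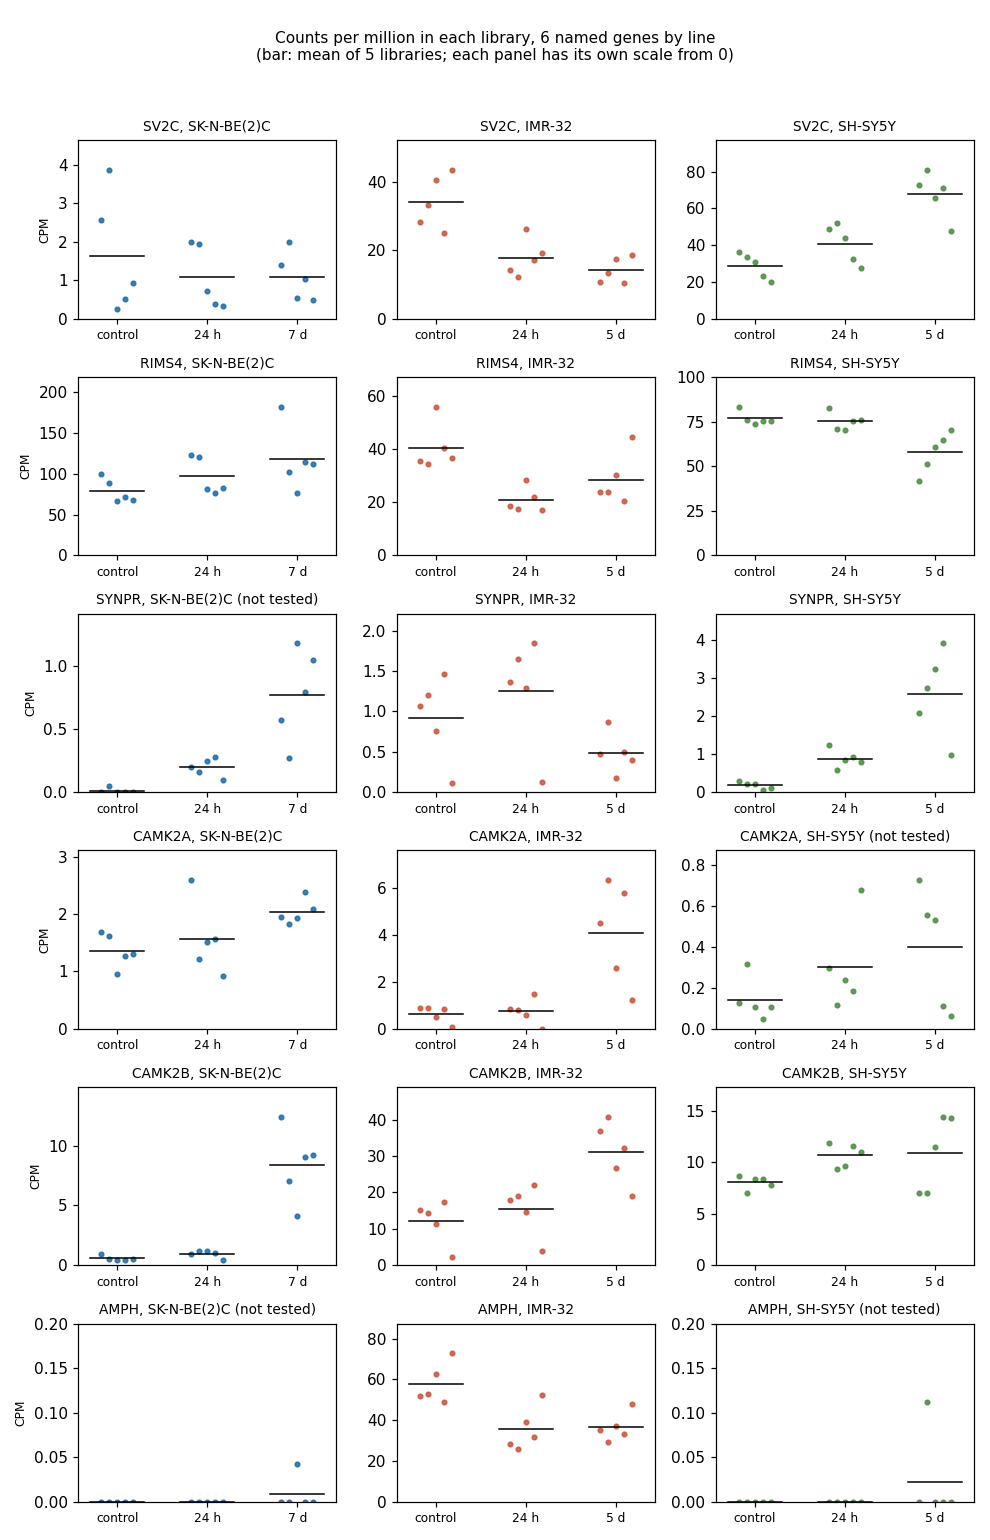
CPM in each library of SV2C, RIMS4, SYNPR, CAMK2A, CAMK2B and AMPH by line and group, each panel on its own axis from 0 with the mean of 5 libraries as a bar. SV2C lay below its controls after 5 days in IMR-32 and above them in SH-SY5Y, and CAMK2B in SK-N-BE(2)C went from 0.45 to 0.94 CPM in controls to 4.12 to 12.4 CPM at 7 days.

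CAMK2A and CAMK2B, which code for the alpha and beta subunits of the calcium-dependent kinase of the postsynaptic density, showed the largest called changes of the group, CAMK2B in SK-N-BE(2)C and CAMK2A in IMR-32, and neither was called at 24 h. CAMK2B (chr7:44249618-44374176, minus strand, GRCh37) in SK-N-BE(2)C read 0.94, 0.53, 0.45, 0.45 and 0.49 CPM in controls, 0.95, 1.22, 1.15, 1.06 and 0.44 CPM at 24 h and 12.4, 7.02, 4.12, 9.07 and 9.25 CPM at 7 days. Every 7 day library was above every other library of the line, and the log2 fold change was 3.80 ± 0.33 (adjusted p = 3.48e-08). Only 1 of 5 controls there reached the filter's limit of 0.54 CPM, against 4 libraries at 24 h and 5 at 7 days. CAMK2B thus passed the filter in this line mainly through the treated groups, and its call there is given as a description. In IMR-32 it rose by 1.35 ± 0.46 (adjusted p = 0.0231), from 12.1 ± 5.93 to 31.1 ± 8.59 CPM, replicate 5 being lowest in each group; the call was lost without 5 day replicate 2, and on replicates 1 to 4 the value was 1.22 ± 0.15 (adjusted p = 4.59e-06). In SH-SY5Y it was not called (0.36 ± 0.18), with 5 day values of 7.00, 7.03, 11.5, 14.4 and 14.3 CPM beside 7.05 to 8.69 in controls. The response of SH-SY5Y was smaller than that of SK-N-BE(2)C by 3.40 ± 0.58 (adjusted p = 1.63e-05). CAMK2B has 2325 exon bases under YKT6 on the other strand, and if strand was not used reads of the 2 genes cannot be told apart there.

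CAMK2A rose in IMR-32, where the controls read 0.88, 0.85, 0.49, 0.84 and 0.06 CPM and the 5 day libraries 4.48, 6.32, 2.58, 5.75 and 1.23 CPM, a log2 fold change of 2.65 ± 0.61 (adjusted p = 0.00211) on 67 and 365 counts. Its SK-N-BE(2)C level went from 1.36 ± 0.30 to 2.04 ± 0.21 CPM and was not called (0.53 ± 0.25, adjusted p = 0.0665), but it was called higher with the replicate block. In SH-SY5Y the gene did not pass the filter (14 and 37 counts). The response of IMR-32 was larger than that of SK-N-BE(2)C by 2.09 ± 0.63 (adjusted p = 0.00923).

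Tested as 1 model over the 45 libraries, the 24 h response differed between lines for 3 of the 51 members (VAMP2, RIMS4 and NLGN2; 9.43% of all genes did) and for 10 with the replicate block, where 19.2% of all genes did. The longer response differed for 31 of 51 (60.8%), where 52.4% of all genes did. On replicates 1 to 4 of IMR-32 these counts were 7 and 36, where 14.2% and 58.7% of all genes differed. A difference between lines was thus the rule among all genes too, and the longer time itself was not the same in all lines.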

How the data were processed

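RNA-seq counts per gene were taken from the 3 count tables that the authors deposited, 1 for each line. Per the submitters' processing notes, reads were trimmed with Trim Galore 0.6.4 and aligned with STAR 2.6.1d to hg19, and differential expression was run with DESeq2 1.32.0. The library kit was directional and selected polyadenylated RNA; the strand setting of the counting step was not given. Counts that share a paralogue, an overlapping gene or an antisense gene are therefore less certain. The deposited CPM tables repeat the counts, and the deposited DESeq2 tables hold the authors' own log2 fold changes and adjusted p-values; neither was used.

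Tests were run within each line over its 15 libraries with edgeR 4.0.16 (limma 3.58.1) under R 4.3.3. Genes were kept by filterByExpr (minimum count 10, minimum total 15, share 0.7), scaled by TMM and tested by the robust quasi-likelihood F test, with Benjamini-Hochberg adjustment over all genes kept. Calls required an adjusted p below 0.05 together with a log2 fold change over 0.5 in size. Responses and control levels were compared between lines in 1 fit over all 45 libraries, with an adjusted p under 0.05 as the only limit; pairs of lines named in the text are contrasts of that fit. CPM values in the text are counts over library totals, and levels per kb divide by exon length. Depth was 13459219 to 25441812 counts per library; p-values measure the spread between passages of 1 culture.

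The 53 members, the 103 other synaptic genes and the marker lists were chosen with earlier results of these data known. Genes given in detail were, by rule, those called alike in all lines, the 3 with the largest change in each line among those reaching 1 CPM in some group, those called in opposite directions, the member of each role with the largest mean change, and, by name, those that failed the filter everywhere; the other members were named after their values were seen. Samples with the same replicate number correlated above the average of other pairs in every comparison of each line. The lowest correlations were in SK-N-BE(2)C, 0.0966 between control and 7 days and 0.0482 between 24 h and 7 days, where other pairs averaged -0.0428 and -0.0493. The main tests did not use this pairing. The alternatives were RLE size factors, library sizes alone, no filter, DESeq2 1.42.0, the replicate number as a block, other fold limits, leaving out each library and, added after seeing the data, IMR-32 on replicates 1 to 4.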

Additional observations from a re-analysis of the deposited data

Results flagged for a closer look

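Of 159 groups of 5 libraries tested for the genes given in detail, 14 held a library far from the other 4 by Dixon's criterion, where chance gives about 1 in 20. Of these, 6 were in IMR-32. There, control replicate 5 was low for SYN1 (40.1 CPM against 73.4 to 79.1), 24 h replicate 5 was low for SYNGR1 (72.3 against 139 to 160) and 24 h replicate 2 was low for SHANK1 (50.4 against 79.4 to 89.4). Control replicate 3 was high for RIMS4 (56.1 against 34.5 to 40.4), control replicate 4 for STX1A (81.6 against 76.6 to 77.9) and 5 day replicate 1 for SYP (344 against 320 to 324).

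In SH-SY5Y, 5 day replicate 4 was high for RAB3A (57.3 against 42.5 to 46.6 CPM) and for VAMP2 (68.5 against 61.1 to 62.1). Control replicate 4 was high for SHANK3 (33.7 against 27.4 to 28.7), control replicate 1 for RIMS4 (83.6 against 73.6 to 76.3) and 24 h replicate 1 for CADPS (5.99 against 4.33 to 4.77). In SK-N-BE(2)C, 24 h replicate 3 was high for RAB3B (1.87 against 1.30 to 1.46 CPM), control replicate 1 for CAMK2B (0.936 against 0.446 to 0.527) and control replicate 2 low for PPFIA3 (47.3 against 55.6 to 57.6).

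The response to PB differed between lines for 2 of 19 of these genes at 24 h and for 13 of 19 at the longer time, where 9.43% and 52.4% of all genes did; some of the 19 were chosen for opposite or large changes in 1 line, so nothing is read from these counts (edgeR's quasi-likelihood F test over 45 libraries, adjusted p over all genes in parentheses; each value is the log2 difference of the 2 lines that differed most). At 24 h, IMR-32 minus SK-N-BE(2)C was 0.64 for VAMP2 (0.018) and -1.20 for RIMS4 (0.00897). At the longer time the same difference was -0.81 for SYN1 (0.000163), -0.62 for SYP (0.000292), -2.67 for SYNGR3 (3.55e-08), -0.68 for STX1A (3.8e-06), -1.08 for RIMS4 (0.00186), -1.32 for CADPS (0.000604) and 2.09 for CAMK2A (0.0191). SH-SY5Y minus IMR-32 was 4.79 for SYNPR (1.16e-07; in SH-SY5Y this gene passed the filter only through the treated groups), 2.51 for SV2C (5.36e-05) and -0.55 for VAMP2 (0.014). SH-SY5Y minus SK-N-BE(2)C was -0.26 for PPFIA3 (0.0259), 0.86 for SHANK1 (0.000261) and -3.40 for CAMK2B (2.97e-05).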

How the results depend on the processing

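With RLE size factors all 21 counts of members called or differing stayed within 1.5 times the values above, and no scaling moved the median of all genes by more than 0.1. Of the 53 fold changes of the genes given in detail, 0 reversed under any alternative; RLE, DESeq2 and the removal of the filter ended 1, 1 and 5 calls, library sizes alone ended 1 and added 1, and the replicate block added 1 (CAMK2A in SK-N-BE(2)C, 0.55, adjusted p = 0.0436). Leaving out 1 library ended a call in 31 of these refitted values and added one in 3. Apart from the values given above, the block also changed these calls of members: CAMK2B, RAB3A, ERC2 and SYN2 rose from 24 h to 5 days in IMR-32 (1.10, 0.68, 0.68 and 0.51), SYNPR fell there (-1.39), PPFIA4 rose at 24 h in SH-SY5Y (0.55), and DNM1 and NRXN2 rose from 24 h to 7 days in SK-N-BE(2)C (0.50 and 0.71).

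With no fold limit, 8 members rose at 24 h in IMR-32, 25 in SH-SY5Y and 20 in SK-N-BE(2)C. In SH-SY5Y 2 fell at 24 h, 6 fell at 5 days, and 17 rose and 7 fell between these times. The share of all genes was not counted without the fold limit, so these counts are not set against a background. With a log2 fold limit of 1, SK-N-BE(2)C had 1 higher and 0 lower at 24 h, 14 and 1 at 7 days and 7 and 0 between them. IMR-32 had 0 and 0, 9 and 3, and 4 and 0. SH-SY5Y had 2 and 10 higher at 24 h and 5 days, and 1 higher and 1 lower between them. The share of all genes was not counted at a limit of 1 either, and nothing is read from these counts. DESeq2 found 7 members whose 24 h response differed between lines, the replicate block 10 (and 7 rising at 24 h in IMR-32), and IMR-32 replicates 1 to 4 found 7 (and 4 falling from 24 h to 5 days). Of all genes, 19.2% differed at 24 h with the block and 14.2% on replicates 1 to 4. The share under DESeq2 was not counted, so nothing is read from its 7. In SH-SY5Y 2 members fell from 24 h to 5 days with library sizes alone and 2 with no filter.

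Leaving out 1 library gave these ranges of members higher and lower. In SK-N-BE(2)C they were 9 to 12 and 0 to 1 at 24 h, 22 to 27 and 2 to 2 at 7 days, and 15 to 19 and 2 to 3 between them; in IMR-32 4 to 6 and 3 to 5, 25 to 29 and 4 to 7, and 12 to 21 and 2 to 4; in SH-SY5Y 10 to 15 and 0 to 0, 20 to 23 and 1 to 3, and 9 to 10 and 2 to 4. Those differing between lines were 2 to 7 at 24 h, 28 to 33 at the longer time and 48 to 50 in control level. Counts moved over 1.5 times without control 4 or 5 or 24 h replicate 2 or 3 in SK-N-BE(2)C (0 lower at 24 h); without control 5 or 5 day replicate 2 or 5 in IMR-32 (4 falling after 24 h); without control 4 or 5 day replicate 1, 4 or 5 (2, 2, 3 and 2 lower at 5 days) or 5 day replicate 2 (2 falling after 24 h) in SH-SY5Y; and, for the 24 h difference between lines, without IMR-32 control 5 (7) or SH-SY5Y control 4 (5). Low counts limit SYNPR, CAMK2A and, in SK-N-BE(2)C, NLGN3 and CAMK2B.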

Other observations

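The counts of other synaptic genes that rose and fell after longer PB are given here by role, beside 24.5%, 16.6% and 18.6% of all genes that rose and 22.3%, 15.5% and 17.3% that fell, in the order SK-N-BE(2)C, IMR-32, SH-SY5Y; no test compares the roles, and many shares lay near these. Other SNARE genes rose in 4 and fell in 1 of 13 tested in each line. Other active zone genes rose in 5 of 12 tested in SK-N-BE(2)C, 3 of 12 in IMR-32 and 3 of 11 in SH-SY5Y and fell in 0, 1 and 0. Other vesicle genes rose in 3 of 12, 2 of 13 and 6 of 11 and fell in 3, 2 and 1. Other endocytic genes fell in 2 of 19, 1 of 21 and 1 of 19. Of the adrenergic markers, 2 of 11, 1 of 10 and 2 of 11 rose and 1 fell in each line. Of the few Schwann cell and glial markers that passed the filter, 1 of 4, 1 of 1 and 2 of 3 rose and 1, 0 and 0 fell, and of the mesenchymal markers 2 of 9, 0 of 7 and 0 of 10 rose.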
